A study of Mus musculus with 7 samples.

Results

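Thyroid hormone handling in brown fat was followed through 8 genes in brown fat from between the shoulder blades (interscapular brown adipose tissue), which burns fuel to make heat. The 8 genes were taken by name from 53715 gene identifiers: the deiodinase Dio2, the transporter Slc16a10, the receptors Thra and Thrb, their partners Rxra and Rxrg, the corepressor Ncor1 and the hormone target Klf9. RNA came from knockout mice lacking PGAM5, a protein phosphatase of mitochondria (KO, 3 libraries), and from wild-type mice (WT, 3 libraries). All were male C57BL/6J mice aged 10 weeks, each library from a separate individual per the labels. A 4th KO sample in the labels was not analysed here. The labels do not say how the knockout allele was made, or in which cells PGAM5 was lost.

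The thyroid gland releases mostly thyroxine, a prohormone. Inside brown fat, the deiodinase encoded by Dio2 removes an iodine atom from thyroxine and so makes triiodothyronine, the active hormone. Triiodothyronine binds receptors encoded by Thra and Thrb, which sit on DNA with a retinoid X receptor (RXR) and exchange corepressors for coactivators when hormone is bound. In this tissue sympathetic nerve signals raise Dio2 through cyclic AMP, and the hormone made is known to be needed for heat production through Ucp1.

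Total counts were between 18952348 and 21826942 in KO and between 18034204 and 33617762 in WT. Levels are given as CPM, counts scaled to the TMM-adjusted size of each library. Genes of the mitochondrial genome took 19.7% to 34.1% of the KO counts and 30.3% to 43.0% of the WT counts. KO 3 (66.8) and WT 2 (-65.0) stood apart from the other 4 libraries (-13.0 to 8.23) along principal component 1 of log2 CPM (45.6% of the variance). Pgam5 itself had 1, 3 and 11 counts in KO, against 167, 122 and 186 in WT (log2 fold change -4.84, SE 0.59, edgeR adjusted p = 0.0243). Brown adipocyte markers were present with a count in every library for 10 of 10 genes, and their summed level was 15731 to 18031 CPM in KO and 13779 to 17069 CPM in WT. Fabp4 alone made up 5714 to 8764 CPM of this sum in KO and 7473 to 10568 CPM in WT. Ucp1, also a hormone target given further on, made up 3765 to 5974 CPM of it in KO and 1638 to 2853 CPM in WT. The order of the summed levels thus depends on Ucp1. Of the 10 log2 fold changes, 4 were positive and 6 negative. Because the tissue was sequenced in bulk, fewer cells of a type and less RNA per cell cannot be told apart.

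The question was whether loss of PGAM5 went with a change in the machinery that makes and reads thyroid hormone. All 8 genes passed the filter on low counts and entered the test of 15123 genes. In the edgeR quasi-likelihood test, 0 of the 8 passed a Benjamini-Hochberg adjusted p of 0.05, against 0.0595% of all genes tested. The unadjusted p was under 0.05 for 0 of 8 as well, and for 11.8% of all genes. DESeq2 called 0 of 8 (1.12% of all genes) and limma-voom 0 of 8 (0.0463%). The KO and WT libraries were free of overlap in 0 of the 8, and in 19.5% of all genes. Of the 8 log2 fold changes, 5 were positive and 3 negative, with a median of 0.13, beside -0.0019 over all genes tested. With each library left out, the median of the 8 ran from -0.029 (without KO 3) to 0.20 (without WT 2). The lack of calls does not show that the levels were alike, and the 95% interval of each difference is given with its gene.

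Dio2 (ENSMUSG00000007682.6, chr12:90724552-90738438, mm10, minus strand) encodes the activating deiodinase. Its enzyme is a selenoprotein: a TGA codon, elsewhere a stop, is read as selenocysteine. GENCODE marks such a codon at positions 130 and 263 of the 266 codons before the stop. The coding stretches around them are shown because the enzyme's synthesis depends on the selenocysteine genes tested further on. They are written 5′ to 3′ on the minus strand of chromosome 12, with the selenocysteine codon in capitals.
Dio2 codons 123 to 137 (chr12:90729802-90729846): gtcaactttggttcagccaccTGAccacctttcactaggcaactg
Dio2 codons 256 to 267 (chr12:90729412-90729447): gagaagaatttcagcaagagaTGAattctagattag

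The promoter of Dio2 is shown because the level of this gene, more than that of most others, differed between mice of the same genotype. The 250 bases before the RefSeq start (GRCm38.p6, chr12:90739039-90739288, minus strand) hold the cyclic AMP response element TGACGTCA, a palindrome that reads the same on both strands. It is in capitals, and its first base lies 95 bases before the start.
Dio2 promoter: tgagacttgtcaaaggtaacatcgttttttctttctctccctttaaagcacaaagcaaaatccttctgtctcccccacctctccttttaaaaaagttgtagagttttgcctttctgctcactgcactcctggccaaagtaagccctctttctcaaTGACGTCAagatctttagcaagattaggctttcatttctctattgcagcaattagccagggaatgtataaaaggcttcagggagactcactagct
This octamer occurred in 1.55% of the 32851 windows of the same length before RefSeq starts. Among the 11 windows of 7 of the 8 genes it occurred in 1, that of Dio2. The thyroid receptor hexamer AGGTCA, searched on both strands, occurred in 3 of the 11 windows, namely a window each of Thrb, Rxra and Rxrg, against 14.0% of all windows. A direct repeat of this hexamer with 4 bases between the copies occurred in 0 of the 11 and in 0.0152% of all windows. These are matches of letters and not sites shown to be bound. Any part of the cyclic AMP element in the differences of Dio2 between mice was not tested. The RefSeq start lies 600 bases before the start of the GENCODE gene.

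Dio2 was at 49.3, 108 and 40.6 CPM in KO 1 to KO 3, against 25.9, 118 and 124 CPM in WT 1 to WT 3. KO 2, WT 2 and WT 3 were high and the other 3 low, so the groups overlapped throughout. The mean was 66.0 ± 36.7 CPM in KO and 89.5 ± 55.2 CPM in WT (SD, n = 3 each). The log2 fold change was -0.44 (SE 0.53, 95% interval -1.64 to 0.76, edgeR adjusted p = 0.733). That interval runs from 0.321 to 1.69 times the WT level. The highest library held 2.66 times the lowest in KO and 4.80 times the lowest in WT. Among the genes tested with a mean of at least 1 CPM, 6.04% had a wider ratio than Dio2 in KO and 1.71% in WT. The log2 fold change was -0.996 without KO 2, -0.88 without WT 1 and -0.13 without WT 3, and its sign turned without both KO 3 and WT 2 (0.072). Reads of Gm26512, a noncoding gene on the other strand sharing 100 exon bases, numbered 238 against 11073 for Dio2.

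**Figure D1:**
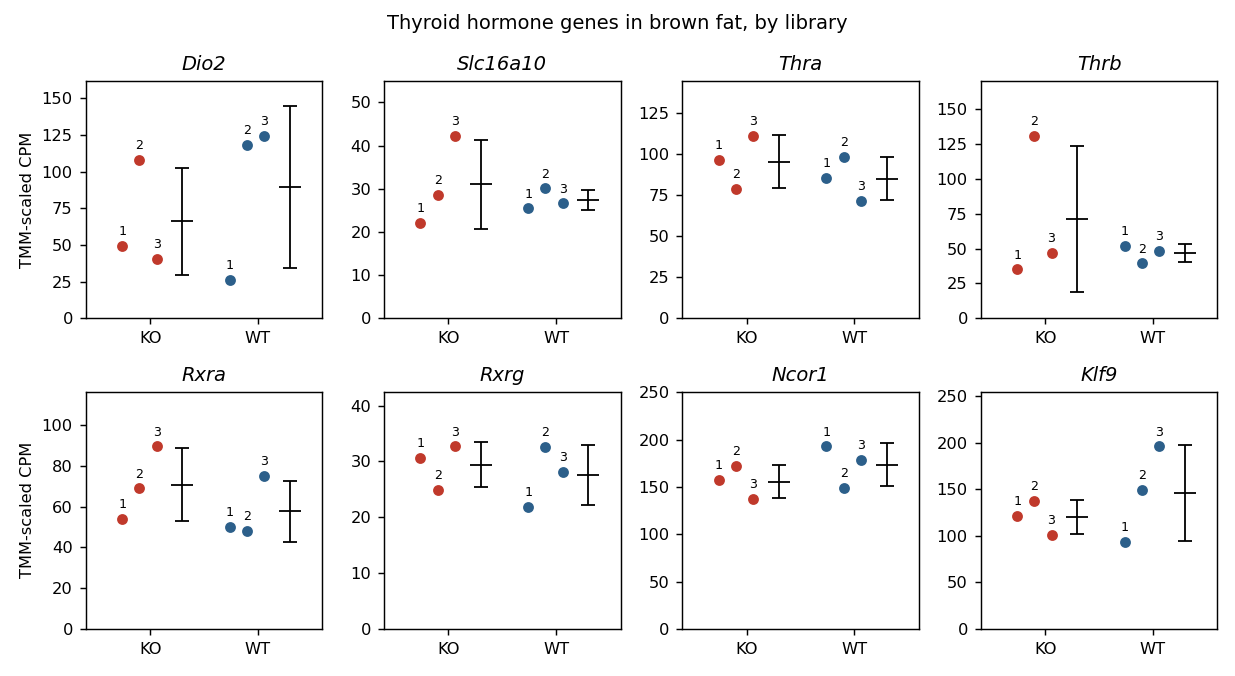
TMM-scaled CPM of each of the 8 genes in the 3 KO libraries (red) and the 3 WT libraries (blue), numbered by replicate, with the group mean and SD as black bars to the right. Dio2 is low in WT 1 (25.9 CPM) and high in WT 2 and WT 3, and Thrb stands at 131 CPM in KO 2 against 35.0 to 51.8 CPM in the other 5 libraries.

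Skeletal muscle, which lies next to this fat pad, can carry Dio2 and RXR gamma transcripts of its own. The summed level of 11 muscle markers was 2.27, 44.9 and 4.25 CPM in KO 1 to KO 3, against 10.0, 12.3 and 52.1 CPM in WT 1 to WT 3. Of these markers 10 had a count in every library, 0 were at 0 throughout, and 0 of the 9 tested passed. The KO and WT libraries of highest muscle level, KO 2 and WT 3, were also those of highest Dio2 in their group, while WT 2 had high Dio2 with 12.3 CPM of muscle markers. The part of muscle RNA in the spread of Dio2 was not tested. White adipocyte markers summed to 64.9 to 96.6 CPM in KO and 89.1 to 175 CPM in WT, and endothelial markers to 315 to 646 CPM in KO and 241 to 406 CPM in WT. Of the 5 white adipocyte markers 0 had a positive log2 fold change (median -0.42), and of the 5 endothelial markers 5 had (median 0.57). In both lists 0 passed, and overlapping sums do not show that the make-up of the tissue was alike.

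The genes whose profile over the 6 libraries lay nearest to Dio2 were found by the root mean square difference of log2 CPM, each gene centred on its own mean. Among 13220 genes the 5 nearest were Fbxo40 (0.24), Bmper (0.29), Nfatc2 (0.30), Lin7a (0.31) and Tnfaip2 (0.32), where a gene of constant level would stand at 0.87. Bmper, which encodes a secreted BMP-binding protein, was at 7.28, 9.49 and 5.33 CPM in KO and 4.00, 12.3 and 14.4 CPM in WT. Fbxo40, an F-box gene of muscle, was at 1.09, 1.67 and 0.928 CPM in KO and 0.566, 2.53 and 3.35 CPM in WT. Nfatc2, Lin7a and Tnfaip2 were likewise scarce, at 0.566, 0.444 and 0.566 CPM in WT 1. Counting error weighs on profiles at such levels. Within the wider thyroid hormone list described further on, the nearest genes were Slc7a8 (0.43, rank 22), Klf9 (0.56, rank 98) and Sephs2 (0.59, rank 149). These likenesses rest on 6 libraries that the genes share, together with their depth and scaling, and are a description.

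**Figure D2:**
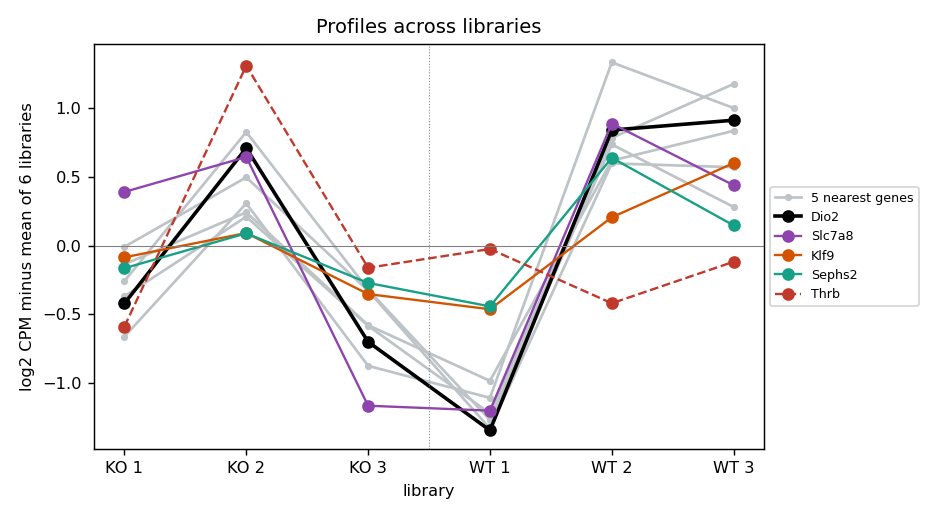
Log2 CPM minus the mean of the 6 libraries (vertical axis) for each library (horizontal axis, KO left and WT right). Dio2 (black) is lowest in WT 1 and high in KO 2, WT 2 and WT 3, the 5 nearest genes (grey) follow it, Slc7a8, Klf9 and Sephs2 are low in WT 1 and KO 3, and Thrb (dashed) peaks in KO 2.

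Slc16a10 (ENSMUSG00000019838.11, chr10:40033532-40142258, minus strand) encodes MCT10, a carrier of aromatic amino acids and of thyroid hormone across the cell membrane. It was at 22.1, 28.6 and 42.3 CPM in KO, against 25.5, 30.1 and 26.6 CPM in WT. KO 3 was the highest library and KO 1 the lowest, with the WT libraries between them. The log2 fold change was 0.18 (SE 0.23, 95% interval -0.34 to 0.70, edgeR adjusted p = 0.748), and without KO 3 it was -0.11.

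The receptor gene Thra (ENSMUSG00000058756.13, chr11:98740638-98769006, plus strand) was at 96.5, 78.9 and 111 CPM in KO, against 85.6, 98.4 and 71.8 CPM in WT. The groups overlapped, with means of 95.6 ± 16.3 CPM in KO and 85.3 ± 13.3 CPM in WT (SD, n = 3 each) and 0.17 as the log2 fold change (SE 0.19, 95% interval -0.27 to 0.60, edgeR adjusted p = 0.722). Thra makes a receptor and, by splicing, a form that does not bind hormone, and counts per gene do not separate them. Nr1d1, the gene of the clock repressor REV-ERB alpha, lies on the opposite strand and shares 263 exon bases with Thra, so reads there could not be told apart without the strand setting. Nr1d1 had 21279 counts against 12276 for Thra, and its log2 fold change was 0.059 (SE 0.23).

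Thrb (ENSMUSG00000021779.17, chr14:17660261-18038090, plus strand), the gene of the second receptor, showed a different pattern. Its level was 35.0, 131 and 47.1 CPM in KO, against 51.8, 39.4 and 48.6 CPM in WT. The single library KO 2, with 3050 counts, stood 2.53 times above the next highest library, while KO 1 lay below every WT library and KO 3 within the WT range. The KO mean was 71.0 ± 52.2 CPM and the WT mean 46.6 ± 6.45 CPM (SD, n = 3 each). The log2 fold change was 0.61 (SE 0.42, 95% interval -0.32 to 1.54, edgeR adjusted p = 0.543). Without KO 2 it was -0.18.

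Few genes stood out in KO 2 in this way. Among the 9747 tested genes over 5 CPM in KO 2, 4 were more than 2-fold above each of the other 5 libraries: Adamtsl3, Thrb and the predicted genes Gm38357 and Gm7694. The same count was 0 for KO 1, 98 for KO 3, 3 for WT 1, 164 for WT 2 and 25 for WT 3. Adamtsl3, which encodes a secreted ADAMTS-like glycoprotein, was at 20.01, 64.9 and 11.4 CPM in KO, against 18.7, 14.8 and 23.0 CPM in WT. It lies on chromosome 7 and Thrb on chromosome 14. These genes were picked after their values were seen, and this count carries no test. The summed muscle markers were at 44.9 CPM in KO 2, where Thrb was highest, and at 52.1 CPM in WT 3, where Thrb was at 48.6 CPM. The part of muscle RNA in the level of Thrb was not tested.

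Per kilobase of annotated exon, Thra was above Thrb in 5 of the 6 libraries. The ratio of Thra to Thrb, as levels per kilobase, was 4.43, 0.967 and 3.79 in KO 1 to KO 3, against 2.65, 4.01 and 2.37 in WT 1 to WT 3. KO 2 was thus the library in which the RNA of both genes stood at a like level by this measure. The ratio depends on the annotated exon lengths, and the Thra counts include the form that does not bind hormone.

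The RXR genes encode the partners with which thyroid hormone receptors bind DNA, and which also pair with PPAR and other receptors. Rxra (ENSMUSG00000015846.14, chr2:27676440-27762957, plus strand) was at 53.8, 68.9 and 89.5 CPM in KO, against 50.1, 48.1 and 74.9 CPM in WT. KO 3 and WT 3 were the highest libraries, and the groups overlapped (log2 fold change 0.29, SE 0.24, 95% interval -0.24 to 0.83, edgeR adjusted p = 0.602). Without both KO 3 and WT 2 the log2 fold change was -0.022.

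Rxrg (ENSMUSG00000015843.10, chr1:167598384-167639623, plus strand) was at 30.7, 24.9 and 32.7 CPM in KO, against 21.9, 32.6 and 28.1 CPM in WT. These values interleaved, and the log2 fold change came to 0.098 (SE 0.19, 95% interval -0.34 to 0.53, edgeR adjusted p = 0.840). The third RXR gene, Rxrb, was at 37.4 ± 4.13 CPM in KO and 29.0 ± 5.30 CPM in WT (SD, n = 3 each), with 0.37 as the log2 fold change (SE 0.18, edgeR adjusted p = 0.447).

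Ncor1 (ENSMUSG00000018501.17, chr11:62316426-62458541, minus strand) encodes the corepressor that holds target genes silent while the receptor carries no hormone. It was at 158, 172 and 137 CPM in KO, against 193, 149 and 179 CPM in WT. WT 1 was the highest and KO 3 the lowest library, and the log2 fold change was -0.16 (SE 0.18, 95% interval -0.56 to 0.24, edgeR adjusted p = 0.716). Its interval was the narrowest of the 8, from 0.680 to 1.18 times the WT level. Ttc19 and Pigl overlap it on the other strand by 1 and 82 exon bases.

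Klf9 (ENSMUSG00000033863.1, chr19:23141226-23168134, plus strand) encodes a zinc finger factor that triiodothyronine, and also glucocorticoid, is known to induce. It was at 122, 138 and 101 CPM in KO, against 93.5, 149 and 196 CPM in WT. WT 1 was the lowest and WT 3 the highest library, with all KO libraries between them. The log2 fold change was -0.28 (SE 0.26, 95% interval -0.87 to 0.30, edgeR adjusted p = 0.643), and -0.014 without WT 3.

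**Figure D3:**
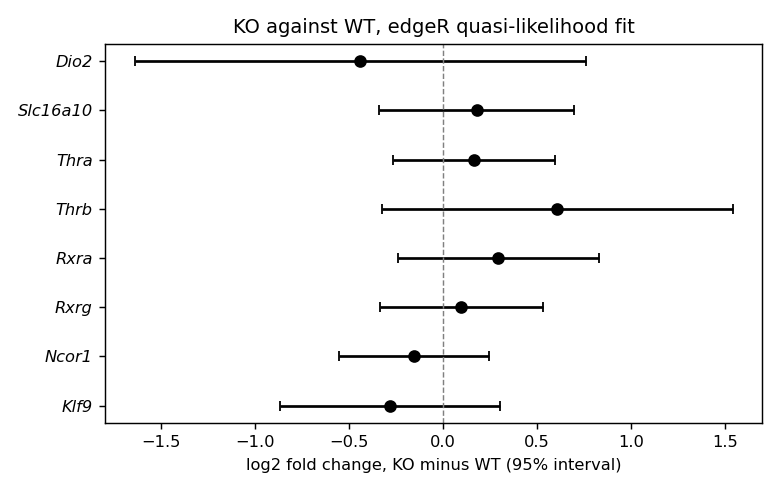
Log2 fold change, KO minus WT, with its 95% interval from the edgeR fit for each of the 8 genes. Every interval spans 0, and those of Dio2 (-1.64 to 0.76) and Thrb (-0.32 to 1.54) are the widest.

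**Figure D4:**
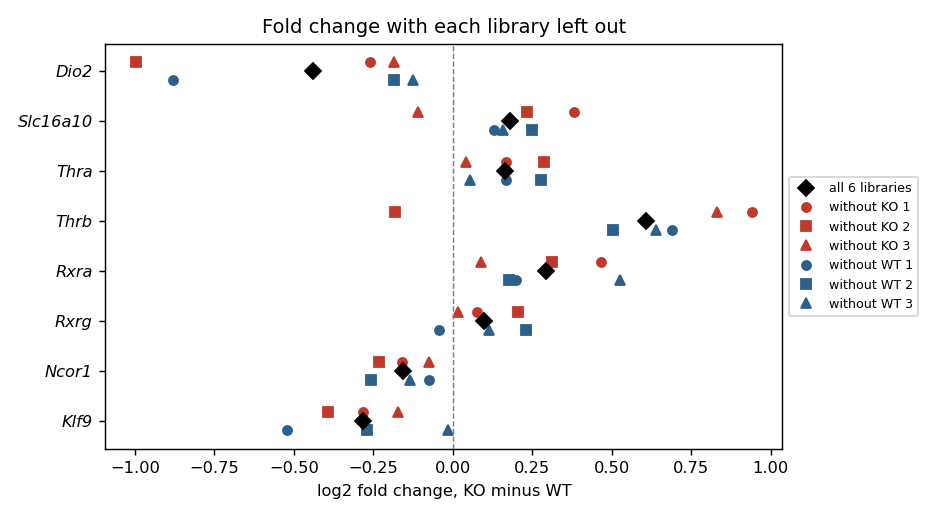
Log2 fold change, KO minus WT, of the 8 genes with all 6 libraries (black diamonds) and with each KO (red) or WT (blue) library left out. Thrb moves to -0.18 without KO 2 and Dio2 to -0.996, and the signs of Slc16a10 and Rxrg also turn with 1 library left out.

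As levels per kilobase of exon averaged over the 6 libraries, the 8 genes ran from Klf9 (27.6 CPM per kilobase) through Thra (19.6), Dio2 (13.4), Ncor1 (12.8), Rxrg (12.4), Rxra (11.8) and Thrb (7.94) to Slc16a10 (3.97). Neighbours in this order overlapped in their ranges over the libraries in every case. Klf9 was above Thra in 5 of 6 libraries, and Thrb above Slc16a10 in 6 of 6, while Dio2 and Ncor1, Ncor1 and Rxrg, and Rxrg and Rxra were each split, with either gene higher in 3 of 6.

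The wider list of 59 genes covered the pathway by role, and 53 of them were tested. In edgeR 0 of the 53 passed (0.0595% of all genes tested), and for 2 the unadjusted p was under 0.05 (11.8% of all genes). DESeq2 called 1, Ucp1 (1.12% of all genes), and limma-voom 0 (0.0463%). Of the 53, 33 were positive and 20 negative, with a median log2 fold change of 0.081, beside -0.0019 over all genes. With each library left out, this median ran from -0.013 (without KO 3) to 0.17 (without KO 1). It was -0.076 without both KO 3 and WT 2. All KO libraries stood above all WT libraries for 3 genes (Nr1h3, Ucp1 and Atp2a2; 10.1% of all genes) and below for 3 (Dio1, Ube2j1 and Ube2g2; 9.39% of all genes).

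Among transporters, 3 of 4 tested genes were positive and 0 passed. Slc3a2, the heavy chain shared by the LAT amino acid carriers, was at 24.2, 36.4 and 42.2 CPM in KO, against 28.2, 32.2 and 37.9 CPM in WT. The groups overlapped, and the log2 fold change was 0.064 (SE 0.22, 95% interval -0.43 to 0.56, edgeR adjusted p = 0.912). Slc7a8, which encodes the light chain LAT2 and also lay near Dio2 in its profile, was at 15.4, 18.4 and 5.18 CPM in KO, against 5.05, 21.8 and 15.95 CPM in WT. Its lowest libraries, KO 3 and WT 1, were also low in Dio2 (log2 fold change -0.12, SE 0.53, 95% interval -1.32 to 1.07, edgeR adjusted p = 0.931). KO 1, likewise low in Dio2, was not low in Slc7a8 (15.4 CPM, near the 15.95 CPM of WT 3).

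The other deiodinases were scarce. Dio1, the deiodinase typical of liver and kidney, had 13, 17 and 3 counts in KO and 19, 30 and 26 in WT (log2 fold change -1.21, SE 0.65, 95% interval -2.67 to 0.26, edgeR adjusted p = 0.471). Dio3, whose enzyme inactivates the hormone, had 1 count in each KO library and 0, 0 and 4 in WT, too few to test.

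For the synthesis of a selenoprotein, 3 of 5 genes were positive and 0 passed. Sephs2, which makes the selenium donor and is itself a selenoprotein, was at 149, 178 and 139 CPM in KO, against 123, 261 and 186 CPM in WT, a log2 fold change of -0.29 (SE 0.26). Sepsecs, the enzyme that completes selenocysteine on its transfer RNA, was at 36.5 ± 1.82 CPM in KO and 33.4 ± 3.55 CPM in WT (SD, n = 3 each).

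Ubiquitination of the DIO2 protein sends it for degradation and limits its life. The 6 genes listed for adding or removing this mark had 3 positive and 3 negative log2 fold changes, and 0 of 6 passed. Usp20 and Usp33, whose enzymes remove ubiquitin, are among them, so these signs pool opposite actions. Ube2g2, a ubiquitin-conjugating enzyme of the endoplasmic reticulum named for its unadjusted p of 0.0358, was at 20.1, 17.7 and 20.3 CPM in KO, against 20.3, 32.8 and 28.7 CPM in WT (log2 fold change -0.49, SE 0.20, edgeR adjusted p = 0.413). Its highest KO and lowest WT libraries nearly touched. Ube2j1, a second such enzyme, stood at -0.30 (SE 0.16) and March6, the gene of the ligase TEB4, at 0.090 (SE 0.19).

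Of the genes that feed into Dio2, 3 of 4 tested were positive and 0 passed. Adrb3, the beta-adrenergic receptor of adipocytes, was at 200.2, 134 and 331 CPM in KO, against 179.8, 159 and 269.7 CPM in WT (log2 fold change 0.13, SE 0.33). Of the libraries high in Dio2, KO 2 and WT 2 were the lowest of their groups in Adrb3 and WT 3 was the highest of the WT libraries. Nr1h3, which encodes the oxysterol receptor LXR alpha, a known repressor of Dio2, was at 63.2, 60.4 and 65.2 CPM in KO, against 34.5, 54.8 and 56.0 CPM in WT (log2 fold change 0.38, SE 0.20, edgeR adjusted p = 0.468).

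Among receptor cofactors 0 genes passed. Of 6 corepressor complex genes 2 were positive, with Tbl1x at -0.035 (SE 0.15) and Hdac3, the deacetylase of the complex, at -0.15 (SE 0.16). Of 8 coactivator genes 4 were positive, with a median log2 fold change of 0.020. Ppargc1a, the coactivator PGC-1 alpha, was at 42.8, 73.8 and 61.3 CPM in KO and 112, 76.7 and 44.4 CPM in WT, and Ep300, an acetyltransferase, stood at 0.081 (SE 0.24).

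Among 12 target genes, chosen because triiodothyronine is known to raise them in brown fat or in liver, muscle or brain, 10 were positive, 0 passed in edgeR, and the median log2 fold change was 0.20. Of the negative ones, Atp2a1 (-0.38) is also among the 11 muscle markers. The part of muscle RNA in its level was not tested. Ucp1, the uncoupling protein of brown fat, was at 4607, 3765 and 5974 CPM in KO, against 2400.4, 1638 and 2853 CPM in WT (log2 fold change 1.06, SE 0.28, edgeR adjusted p = 0.310). DESeq2 gave it an adjusted p of 0.0093. Fasn encodes the synthase of fatty acids and stood at 2383, 4446 and 30944 CPM in KO and 8677, 305 and 3854 CPM in WT, its extremes falling in KO 3 and WT 2, the libraries that stood apart. Klf9, Ucp1 and Fasn thus did not share an order over the libraries: WT 1, lowest in Dio2 and Klf9, was the middle WT library in Ucp1 and second highest in Fasn. The targets Acaca, Me1 and Gpd2 were, like Fasn, highest in KO 3 and lowest in WT 2. The 10 positive signs are therefore not separate observations.

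**Figure D5:**
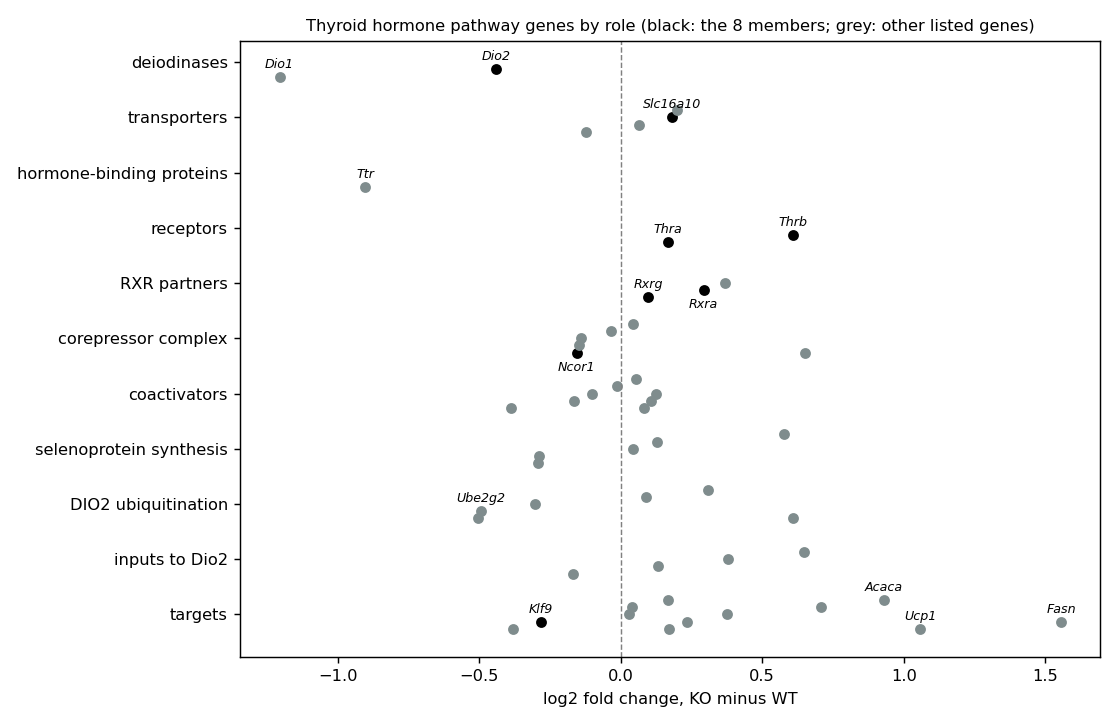
Log2 fold change, KO minus WT (horizontal axis), of the 53 tested pathway genes grouped by role (vertical axis), with the 8 genes in black and the other listed genes in grey. The points lie on both sides of 0 in most roles, and Fasn (1.56) and Dio1 (-1.21) mark the ends.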

How the data were processed

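The authors deposited unnormalized read counts for each gene. The submitters' processing notes name build mm10 with HISAT2 2.1.0, DESeq2 (no version) and featureCounts 1.6.2. Annotation release and strand setting were not given in the sources used here. Per the labels' protocols, poly(A) RNA was sequenced with a stranded kit. Of the identifiers, 53620 had a symbol. Positions and exon lengths came from GENCODE release M 21 on the same build, and promoter windows from RefSeq (GRCm38.p6).

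Genes were filtered with filterByExpr (minimum count 10, minimum total 15), scaled with TMM and tested by the edgeR quasi-likelihood test with genotype as the only term (edgeR 4.0.16, limma 3.58.1, R 4.3.3). Intervals are the 95% intervals of that fit. Log2 CPM used a prior count of 2. In 5 draws of simulated data the fit called 87.2% of 4-fold changes and 34.6% of 2-fold changes. Of its calls there, 8.70% were false. These draws took each gene on its own at its fitted spread and left out the differences that genes shared in KO 3 and WT 2. The shares called there therefore need not hold for these data. Alternatives included DESeq2 1.42.0 and limma-voom. An exact permutation test of 3 against 3 cannot go below p = 0.1. A count of 0 allows up to 0.0883 to 0.200 CPM by library on the same TMM scale (3 counts, counting error only).

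The 8 genes, the lists and the tests were chosen with earlier results of these data known. Named were the 8 genes, Pgam5, Nr1d1, the 2 other genes of highest mean CPM in each role and the 5 profiles nearest to Dio2 at a mean of at least 1 CPM. Usp20 and Usp33 were named for their opposite action on DIO2. A listed gene is not reported here. Ube2g2, Atp2a1, Atp2a2, Acaca, Me1, Gpd2 and Adamtsl3, with the other genes singled out by a count, were picked after their values were seen. Plots used matplotlib 3.10.9, and tables pandas 2.3.3 under Python 3.11.15.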

Additional observations from a re-analysis of the deposited data

How the results depend on the processing

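Of the 8 genes, 0 passed under each of the 13 alternatives, and 3 (Thra, Klf9 and Ncor1) kept their sign in all of them. Over all genes tested, 9 passed, against 168 with DESeq2, 663 with no filter, 5 with the replicate block, 27 without both KO 3 and WT 2, and 0 (without KO 2) to 17 (without WT 2) with each library left out. Without KO 2, 1482 genes still had an unadjusted p under 0.05 in edgeR. Of the pathway list, 1 gene passed with DESeq2 (Ucp1, beside 1.12% of all genes) and 4 with no filter (Ttr, Ucp1, Fasn and Acaca, beside 663 over all genes). With no filter the SE was 0.21 for each of Dio2, Thra and Thrb, against 0.53, 0.19 and 0.42 in the main fit. That fit thus gave these genes nearly the same SE whatever their spread, and its calls are to be read with that limit. Signs turned for Dio2 (0.072), Slc16a10 (-0.033), Rxra (-0.022) and Nr1d1 (-0.25) without both KO 3 and WT 2. With each library left out, log2 fold changes ran from -0.18 to 0.94 for Thrb, -0.11 to 0.38 for Slc16a10, -0.044 to 0.23 for Rxrg and -0.16 to 0.19 for Nr1d1. The cause was not tested. Pgam5 kept its sign throughout and lost its call with limma-voom (log2 -5.21), with the replicate block (-4.95) and without KO 1, KO 2, WT 1 or WT 3. The replicate block rests on numbers alone: libraries of the same number had correlations of deviations from -0.11 to 0.10, and not every library correlated best with its own number. It changed no call among the 8 genes or the pathway list. With 3 libraries a group, the widths of the intervals given for Dio2 and Thrb set what could be seen.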

Other observations

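Transthyretin, a thyroxine carrier of blood made mainly by liver and choroid plexus, was counted in every library. Ttr was at 17.8, 25.0 and 1.37 CPM in KO, against 20.6, 39.6 and 22.8 CPM in WT, so KO 3, with 28 counts, lay far below the other 5 libraries. Its log2 fold change was -0.90 (SE 0.70, 95% interval -2.47 to 0.67, edgeR adjusted p = 0.588). Crym, which encodes a cytosolic protein that binds triiodothyronine, had 0 counts in every KO library and 11, 0 and 0 counts in WT, all in WT 1. It was too scarce to be tested, as were the transporters Slco1c1, Slco1a4 and Slc17a4 and the bile acid receptor gene Gpbar1. Gpbar1 had 1, 3 and 8 counts in KO and 0, 0 and 4 in WT.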
